A study of Mus musculus with 2 samples.

Results

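The 10 genes described here encode the machinery that loads peptides onto MHC class II molecules and shows them to CD4+ T cells. They were taken by symbol from the 33696 genes counted in both single-cell libraries of the study, and all 10 were present once in each. *H2-Aa*, *H2-Ab1* and *H2-Eb1* encode the class II chains, and *Cd74* the invariant chain that blocks their groove and steers them to endosomes. *H2-DMa*, *H2-DMb1* and *H2-DMb2* encode the H2-M proteins that exchange the last invariant chain fragment for peptide, *H2-Oa* and *H2-Ob* the H2-O proteins that inhibit H2-M, and *Ciita* the transactivator that switches the class II genes on.

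Class II proteins are made constitutively by dendritic cells (DCs) and B cells, at adjustable levels by macrophages, and by endothelial and other non-immune cells mainly after exposure to interferon gamma. Proteases of the endosome such as cathepsin S cut the invariant chain down before H2-M acts. Mice of the C57BL/6 background lack a functional *H2-Ea* chain gene, so that they show I-A but not I-E molecules at the cell surface even though *H2-Eb1* is transcribed.

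The libraries came from the suprarenal abdominal aorta of 5-month-old male C57BL/6J mice, taken on day 28 and dissociated with enzymes for droplet-based 3′ sequencing. Control mice received saline. AngII+HS mice received angiotensin II at 1500 ng/kg/min from an osmotic minipump together with drinking water holding 0.9% NaCl and 0.2% KCl, a treatment meant to induce abdominal aortic aneurysm. Each condition gave 1 library, pooled from 5 mice according to the design text, whereas the protocol in the labels speaks of 1 Control mouse and 2 AngII mice. The 2 libraries are therefore single samples without any replicate check. No p-value is given, and the 95% intervals cover counting error only.

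The matrix recorded under Control had 11448 barcodes and the matrix recorded under AngII+HS had 24804. The barcode lists were recorded crosswise, as each had the length of the other library's matrix, and 67 barcodes occurred in both lists. Had the matrices been exchanged as well, all directions given here would be the opposite. As recorded, vascular smooth muscle cells (VSMCs) made up 53.2% of the cells in Control and 4.50% in AngII+HS, macrophages 3.59% and 14.1%, and neutrophils 0.964% and 23.6%. After filtering and doublet removal, 10269 Control cells with 75294050 unique molecular identifiers (UMIs) and a median of 7274 per cell remained, against 19734 AngII+HS cells with 80581691 UMIs and a median of 3065.5. Cells were clustered without the 10 genes, so that their levels played no part in the clusters. Cell type names stand for clusters named by marker genes, and each should be read as, for example, DC-like.

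Of the H2 members, all lie within the MHC locus on chromosome 17 (34311314 to 34535648 on GRCm39), while *Ciita* lies on chromosome 16 (10297923 to 10347694). *H2-DMb1* and *H2-DMb2* are near-identical neighbors whose short 3′ reads may be split unevenly between them, and the gene models of *H2-Aa* and *H2-Eb1* overlap on opposite strands, so the values of these 4 genes carry that uncertainty. Promoter sequences are shown because class II promoters are known for a shared module of an X box and a Y box. The levels of the members did not all go together across cell types. UMIs of *H2-DMb2*, *H2-Oa* and *H2-Ob* came mainly from B cells and DCs. The stretches below are the 110 bases before the RefSeq start on GRCm38.p6, with the letters GCAAC, which lie within the X box, in capitals. The core of the Y box is also in capitals, as ATTGG or, where it lies on the other strand, as its reverse complement. The stretches come from chr17:34287824-34287933 (minus strand) for *H2-Aa*, chr17:34305757-34305866 for *H2-Eb1*, chr17:34092269-34092378 for *H2-Oa*, chr17:34238795-34238904 for *H2-Ob*, chr17:34153081-34153190 for *H2-DMb1* and chr17:34145139-34145248 for *H2-DMb2* (plus strand).
H2-Aa: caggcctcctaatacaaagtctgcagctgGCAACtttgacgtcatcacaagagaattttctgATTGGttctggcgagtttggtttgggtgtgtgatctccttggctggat
H2-Eb1: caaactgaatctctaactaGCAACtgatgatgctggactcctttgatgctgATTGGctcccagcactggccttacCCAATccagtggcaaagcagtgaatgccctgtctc
H2-Oa: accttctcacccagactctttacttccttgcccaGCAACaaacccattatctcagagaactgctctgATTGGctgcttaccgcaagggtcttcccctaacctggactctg
H2-Ob: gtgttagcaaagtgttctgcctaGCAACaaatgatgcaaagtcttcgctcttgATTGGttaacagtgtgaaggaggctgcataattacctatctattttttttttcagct
H2-DMb1: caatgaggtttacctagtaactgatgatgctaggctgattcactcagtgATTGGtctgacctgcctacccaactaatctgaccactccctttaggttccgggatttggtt
H2-DMb2: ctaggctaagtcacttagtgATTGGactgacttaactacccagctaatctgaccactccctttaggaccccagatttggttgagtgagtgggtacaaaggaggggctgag

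GCAAC followed by ATTGG, 15 to 40 bases apart, was present in the promoters of *H2-Aa*, *H2-Eb1*, *H2-Oa* and *H2-Ob*. Over the 250 bases before the start, the same pair occurred on either strand in 184 of 32851 RefSeq promoters (0.560%), GCAAC at all in 29.9% and ATTGG at all in 33.8%. *H2-DMb1* and *H2-DMb2* had ATTGG without GCAAC. The windows of the 2 RefSeq starts of *H2-DMa* did not hold the pair, and *H2-Ab1*, *Cd74* and *Ciita* had no entry. The pair was chosen after the promoters were seen, and a match is a description of the letters.

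*H2-Aa*, *H2-Ab1*, *H2-Eb1* and *Cd74* gave nearly all the UMIs of the members, and their sum is called the class II level, in CPM (UMIs of the group scaled to a total of 1000000). The members took 27234 UMIs (0.0362% of all) in the Control library and 347506 UMIs (0.431%) in the AngII+HS library. In the Control library the DCs were highest with 27206 (26417 to 28012) CPM, followed by B cells with 11813 (11448 to 12188) and macrophages with 7450 (7320 to 7582). Monocytes, with 3275 (3095 to 3463) CPM, lay well below the macrophages. T cells, which are not known to make class II in mice, were at 48.8 (32.7 to 70.1) CPM and serve as the background level. This level is a reference and no measure of free RNA. Control T cells held 29 class II UMIs in 130 cells. Per cell that was more than in Control fibroblasts (92 UMIs in 1158 cells) and VSMCs (660 UMIs in 5463 cells). In the AngII+HS library the order was DCs at 36759 (36544 to 36976), B cells at 16156 (15988 to 16325), then monocytes at 8635 (8564 to 8707) and macrophages at 8625 (8571 to 8679), whose intervals overlap, with T cells at 319 (298 to 341) CPM. Within a cell type, more class II RNA per cell and a changed mix of cells cannot be told apart in such a sum.

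**Figure D1:**
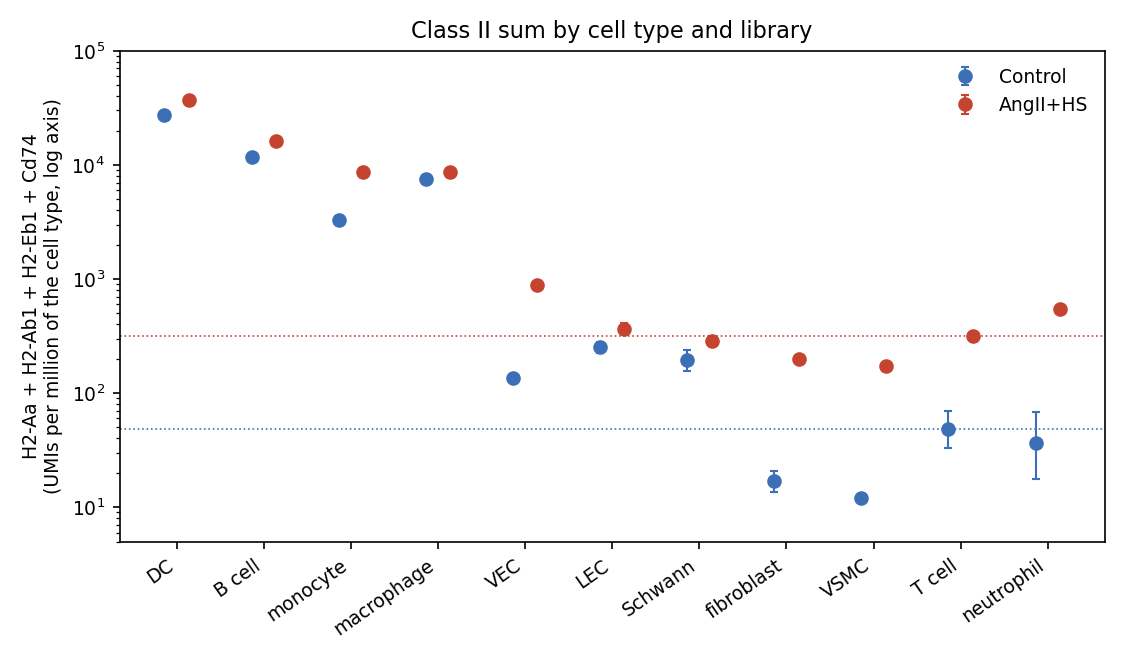
Class II level (summed CPM of *H2-Aa*, *H2-Ab1*, *H2-Eb1* and *Cd74*, log axis) of each cell type, with a point for each library and bars for the 95% Poisson interval. DCs (27206 and 36759 CPM) and B cells stand highest in both libraries, and the dotted lines mark the T-cell levels of 48.8 and 319 CPM.

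The libraries drew these UMIs from different cells. In the AngII+HS library 33.2% of the class II sum came from the 584 DCs, 29.3% from 2788 macrophages, 16.6% from 1476 monocytes and 10.5% from 994 B cells. In the Control library 48.6% came from 369 macrophages, 17.5% from only 26 DCs, 15.4% from 99 B cells and 4.82% from 51 monocytes. The number of Control DCs depended on the processing. It was 41 with a stricter cell filter and 121 with the class II genes used in clustering, and the shares were not computed for these. VECs (vascular endothelial cells) held 2.27% of the sum in the Control and 1.62% in the AngII+HS library.

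DCs carried every member. Their class II level was 27206 CPM in the Control and 36759 CPM in the AngII+HS library, a log2 ratio (AngII+HS over Control here and throughout) of 0.43 (0.39 to 0.48). TMM scaling, which centers most genes, moved all log2 ratios of DCs upward by 0.60 and made this one 1.04, so that negative log2 ratios of DCs smaller than that shift change sign under it. The shift was 0.54 in monocytes, 0.21 in macrophages, 0.20 in B cells, 0.23 in fibroblasts, 0.14 in resident-like macrophages and -0.04 in VECs. *H2-Ab1*, the I-A beta chain, was at 3885 (3590 to 4197) and 7076 (6982 to 7172) CPM, with a log2 ratio of 0.87 (0.75 to 0.98). Its partner *H2-Aa* was at 6181 and 8167 CPM, with a smaller log2 ratio of 0.40 (0.31 to 0.49), so that *H2-Ab1* per *H2-Aa* UMI was 0.629 in Control and 0.866 in AngII+HS DCs. *H2-Eb1* (log2 ratio 0.27, 0.19 to 0.36) and *Cd74* (log2 ratio 0.36, 0.29 to 0.43) also lay slightly higher in the AngII+HS library. The higher *H2-Ab1* per *H2-Aa* UMI was not particular to DCs. It was 0.600 and 0.687 in B cells, 0.603 and 0.699 in macrophages and 0.25 and 0.855 in T cells. It was lower in AngII+HS lymphatic endothelial cells (0.982 and 0.937), Schwann cells (0.895 and 0.774) and neutrophils (1 and 0.694). Among the 10 members, all measured in DCs with at least 20 UMIs, 2 were at least 2-fold higher in AngII+HS, where 13% of the 8600 genes measured were. The 2 were *H2-DMb2* and *H2-Oa*, from 7 and 4 Control UMIs. The median log2 ratio was 0.32 over the members. Over all measured genes it was 0.00, the value given to genes without a Control UMI whose floor bound did not exceed 0. It is thus no measured center, and the medians were not compared.

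Macrophages of both libraries had similar class II levels as a whole but very different ones by cluster. Over all macrophages the level was 7450 CPM in Control and 8625 CPM in AngII+HS (log2 ratio 0.21, 0.18 to 0.24), with *H2-Ab1* (log2 ratio 0.49, 0.42 to 0.57) again moving most among the chains. Of the 8 members measured in macrophages none was 2-fold higher, against 13.4% of the 12552 genes measured, and *H2-Ob* was 2-fold lower, against 16.6%, from 9 Control and 30 AngII+HS UMIs. *H2-DMa* was at 112 (96.6 to 129) and 92.8 (87.3 to 98.6) CPM (log2 ratio -0.27, -0.50 to -0.04) and *H2-DMb1* at 87.6 and 89.3 CPM (log2 ratio 0.03, -0.22 to 0.29). Merging the libraries without integration turned the direction of the macrophage ratio, to -0.078. Splitting the macrophages by cluster separates the levels.

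The resident-like macrophages, 348 Control and 1022 AngII+HS cells in the cluster led by *Oasl1* and *Kitl* and the cluster led by *Cd209f* and *Lyve1*, had class II levels of 7269 (7136 to 7404) and 19969 (19824 to 20115) CPM, a log2 ratio of 1.46 (1.43 to 1.49). All 4 genes of the sum lay higher there. *H2-Aa* was at 1459 and 4377 CPM (log2 ratio 1.58, 1.52 to 1.65), *H2-Ab1* at 859 and 2977 CPM (log2 ratio 1.79, 1.71 to 1.88), and *Cd74* at 3395 and 8468 CPM (log2 ratio 1.32, 1.28 to 1.36). The loading genes went the same way with smaller ratios, *H2-DMa* with 0.78 (0.54 to 1.03) and *H2-DMb1* with 1.2 (0.92 to 1.48). *Ciita* was at 14.1 (8.85 to 21.4) and 24.8 (20 to 30.5) CPM, a log2 ratio of 0.81 (0.13 to 1.56).

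The cluster led by *Oasl1* and *Kitl* (244 and 681 cells) was at 8502 (8330 to 8677) and 23909 (23721 to 24098) CPM (log2 ratio 1.49, 1.46 to 1.52). The *Lyve1* cluster (104 and 341 cells) was lower in each library, at 4412 (4224 to 4606) and 10190 (9997 to 10386) CPM (log2 ratio 1.21, 1.14 to 1.28). Over both libraries *Lyve1* was at 188 CPM in the *Oasl1* and 681 CPM in the *Lyve1* cluster. *Folr2* was at 127 and 613 CPM, *Cd163* at 229 and 664 CPM and *Ccr2* at 140 and 38.4 CPM. The *Oasl1* cluster gave 61761 of the 72367 class II UMIs of AngII+HS resident-like macrophages, so the resident-like name needs that limit. Macrophages led by *Mmp12* (21 and 433 cells) had similar levels in both libraries, 9809 (9256 to 10387) and 9024 (8904 to 9145) CPM (log2 ratio -0.12, -0.21 to -0.03). The ratios of the *Mmp12* cluster and the resident-like clusters thus lay far apart relative to counting error. Their difference between mice was not tested.

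The *Arg1*-rich macrophages, led by *Inhba* and *Cxcl3* (777 cells) or by *Ppbp* and *Hmox1* (531 cells), had no Control cells. Their class II levels were 639 (613 to 666) and 966 (920.3 to 1014) CPM, against 319 CPM in T cells of the same library. A small cluster led by *Marco* (25 AngII+HS cells) was at 2617 (2319 to 2942) CPM. With 0 *Arg1*-rich cells among 369 Control macrophages, a Control share of up to 0.813% remained possible. The *Arg1*-rich cells made up 46.9% of the AngII+HS macrophages and 3.98% of the macrophage class II UMIs. The resident-like cells made up 36.7% of the cells and 73.6% of these UMIs. Without the *Arg1*-rich clusters the macrophage level was 7450 CPM in Control and 15369 CPM in AngII+HS, a log2 ratio of 1.04 (1.02 to 1.07) in place of 0.21. In the Control library the resident-like cells made up 94.3% of the macrophages and gave 90.6% of their class II UMIs.

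**Figure D2:**
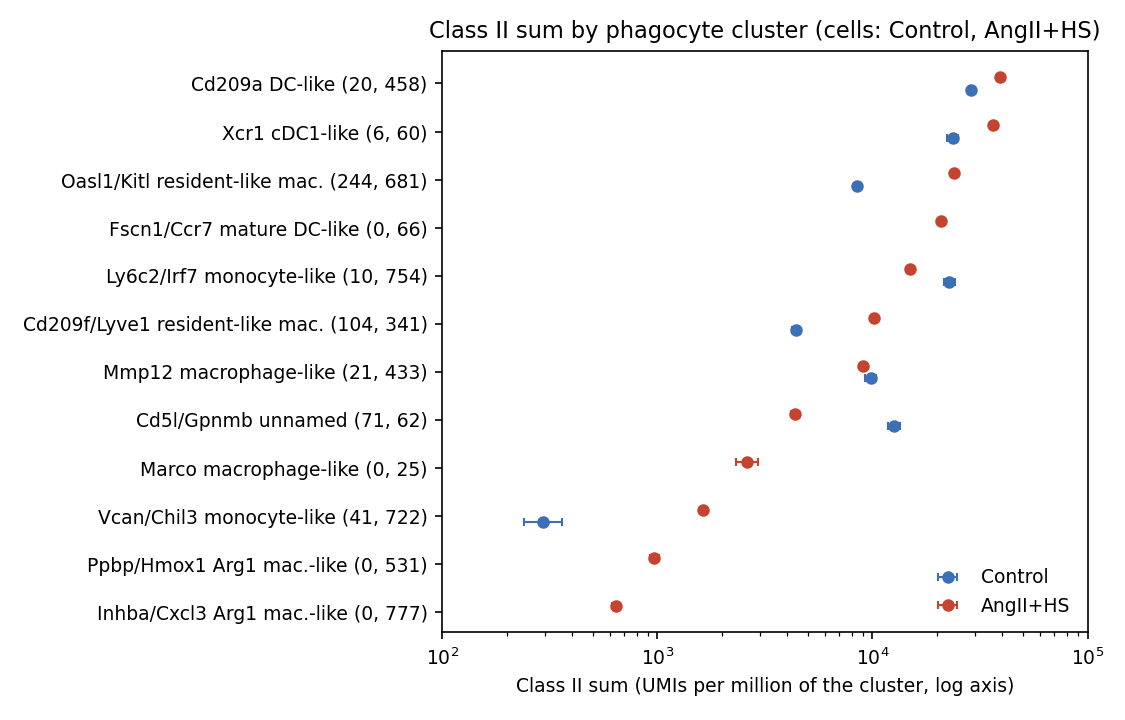
Class II level (CPM, log axis) of each DC-like, macrophage-like and monocyte-like cluster in both libraries, with 95% Poisson intervals and the numbers of Control and AngII+HS cells in the labels. The resident-like clusters sit higher in AngII+HS (23909 against 8502 CPM in the *Oasl1* cluster), and the *Arg1* clusters, at 639 and 966 CPM, sit below every other macrophage cluster.

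Monocytes split in a like manner. The cluster led by *Ly6c2* and *Irf7*, an interferon-response signature, was at 22761 (21461 to 24119) CPM in 10 Control cells and 14924 (14795 to 15055) CPM in 754 AngII+HS cells (log2 ratio -0.61, -0.69 to -0.52). The cluster led by *Vcan* and *Chil3*, genes of classical monocytes, was at 295 (239 to 360.0) CPM in 41 Control and 1621 (1576 to 1667) CPM in 722 AngII+HS cells (log2 ratio 2.46, 2.17 to 2.76). The macrophage gene *C1qa* was at 2245 CPM in the *Ly6c2* cluster over both libraries, against 2528 CPM in the *Oasl1* macrophages and 199 CPM in the *Vcan* cluster. The *Ly6c2* cluster gave 50673 of the 55609 class II UMIs of AngII+HS monocytes, so its monocyte name needs that limit. The pooled monocyte level, 3275 and 8635 CPM (log2 ratio 1.40, 1.32 to 1.48), combined a cluster that was lower and a cluster that was higher in AngII+HS, with different shares of each. It was 0.76 with double the number of doublets removed and 3.57 with the libraries merged without integration. Of 7 members measured in monocytes 4 were at least 2-fold higher in AngII+HS (11.5% of the 10198 genes measured were), namely *H2-Aa* (log2 ratio 1.39, 1.21 to 1.56), *H2-Ab1* (log2 ratio 1.81, 1.58 to 2.05), *H2-Eb1* (log2 ratio 1.07, 0.91 to 1.24) and *Cd74* (log2 ratio 1.44, 1.31 to 1.56).

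Within the AngII+HS library the class II level was also set beside *Arg1*, which encodes the arginase of alternatively activated macrophages. An *Arg1* UMI was found in 7.09% of the T cells (median depth 2308 UMIs), which serves as its background. In the *Ly6c2* monocyte cluster 113 of 754 cells had one, and these were at 7138 CPM and the other 641 at 16558 CPM. In the *Vcan* cluster the 528 cells with *Arg1* (73.1%) were at 1342 CPM and the rest at 2452 CPM. Both monocyte clusters thus had lower levels in the cells with *Arg1*, at like median depths of 4670 and 4190 UMIs in the first and 4179.5 and 3856.5 in the other. The T cells also went that way, at 244 CPM with *Arg1* and 325 CPM without, at 2490 and 2290 UMIs. The macrophage clusters did not all go that way. In the *Ppbp* cluster the levels were 783 CPM with *Arg1* and 3228 CPM without, at median depths of 3246.5 and 1036 UMIs. In the *Mmp12* cluster (11.3% with *Arg1*) the levels were 6831 and 9415 CPM, at 6489 and 4864 UMIs. In the *Inhba* cluster, where 762 of 777 cells had *Arg1*, the levels were 640.3 and 521 CPM, at 4440 and 2778 UMIs. Cells without *Arg1* were thus shallower in these macrophage clusters, and depth cannot be told apart from *Arg1* there. In the *Oasl1* cluster (7.93% with *Arg1*) and the *Cd209a* DC cluster (6.99%) the share was close to that of T cells, so that no comparison was drawn there. In the *Lyve1* macrophage cluster the share, 9.68%, was little above it. The levels there were 8262 CPM with *Arg1* and 10444 CPM without, at like median depths of 2855 and 2634 UMIs.

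Class II UMIs were also counted cell by cell. After each cell was thinned to 1000 UMIs, 45.2% of resident-like macrophages in Control and 70.6% in AngII+HS had 5 or more class II UMIs, and the median was 3 and 20 UMIs. In the *Oasl1* cluster the share was 52.3% and 81.0%. Over all macrophages it was 45.3% and 34.3%, with medians of 3 and 1 UMIs, so that it was lower in AngII+HS while the summed level was higher, and the *Arg1*-rich cells were at 3.79%. DCs had 92.0% and 92.5%, with medians of 22 and 38 UMIs, and B cells 94.8% and 99.4%. T cells, the background, had 0% and 0.471%. Shallower cells were left out, 5 and 47 resident-like macrophages, 1 and 11 DCs, 2 and 39 B cells, 1 and 38 T cells and, further on, 43 and 81 VECs.

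**Figure D3:**
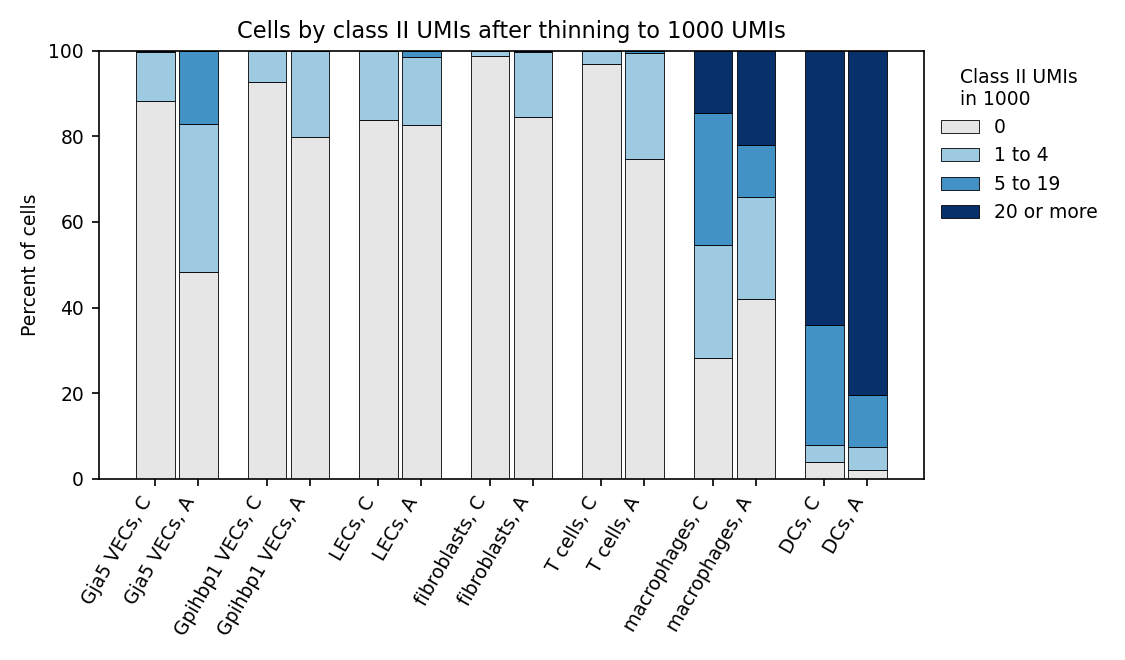
Share of cells (percent, thinned to 1000 UMIs) with 0, 1 to 4, 5 to 19 and 20 or more class II UMIs, by group and library. Most DCs hold 5 or more in both libraries (92.0% and 92.5%). Macrophages as a whole go from 45.3% to 34.3%, and *Gja5* VECs from 0.210% to 17.1%.

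Among DCs, the *Cd209a* cluster was at 28776 (27806 to 29772) and 39117 (38863 to 39372) CPM (log2 ratio 0.44, 0.39 to 0.49, 20 and 458 cells). The *Xcr1* and *Clec9a* cluster, genes of the cross-presenting cDC1, was at 23590 (22264 to 24974) and 36182 (35577 to 36795) CPM (log2 ratio 0.62, 0.53 to 0.70, 6 and 60 cells). The *Fscn1* and *Ccr7* cluster, genes of mature migratory DCs, had 66 AngII+HS and no Control cells and was lower, at 20865 (20376 to 21363) CPM. In these mature cells *H2-DMa* was at 109 (76.3 to 151) CPM and *H2-DMb1* at 63.5 (39.3 to 97.1) CPM, against 427 (401 to 455) and 490.3 (462 to 519.6) CPM in the *Cd209a* cluster, so that both lay further below than the class II sum did. *H2-DMb2* did not, with 133 (96.7 to 179) CPM in the mature and 130.1 (116 to 146) CPM in the *Cd209a* cluster. With 0 of the 26 Control DCs of the main processing in it, the mature cluster could still make up to 11.5% of them.

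B cells carried every member, and none was 2-fold apart between the libraries (10.7% of the 8755 genes measured were 2-fold higher). The class II level was 11813 and 16156 CPM (log2 ratio 0.45, 0.40 to 0.50). *H2-Aa* had a log2 ratio of 0.55 (0.45 to 0.66) and *H2-Ab1* of 0.75 (0.62 to 0.88), while *H2-Eb1* was nearly level with 0.12 (0.02 to 0.23). Plasma cells, the antibody-secreting stage, numbered 125 in AngII+HS and 0 of 10269 cells in Control (up to 0.0292% possible) and were at 1809 (1733 to 1887) CPM. *Cd74* made up 72.6% (70.7% to 74.5%) of that sum in plasma cells, against 41.7% in AngII+HS B cells, 36.3% in DCs and 43.7% in macrophages. Some AngII+HS groups lay between, with 56.8% in *Arg1*-rich macrophages, 52.9% in the *Vcan* monocytes and 50.1% in the *Gja5* VECs. T cells were at 45.1% and fibroblasts at 39.4%.

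In DCs and B cells as a whole, where the class II level was higher in AngII+HS, *Ciita* was not. In DCs it was at 145 (92.9 to 216) CPM in Control and 92.8 (82.3 to 104) CPM in AngII+HS, a log2 ratio of -0.64 (-1.25 to 0.02) from 24 and 281 UMIs, a difference about as large as the TMM shift for DCs. In B cells it was at 80.7 (53.2 to 117) and 49.4 (40.5 to 59.7) CPM (log2 ratio -0.71, -1.33 to -0.04). Per 1000 UMIs of the class II sum, *Ciita* thus had 5.33 and 2.52 UMIs in DCs and 6.83 and 3.06 in B cells. In macrophages it was at 14.3 (9.17 to 21.3) and 11.1 (9.29 to 13.3) CPM (log2 ratio -0.36, -1.0 to 0.33), an interval that spans no difference and a 2-fold decrease. The *Xcr1* DCs had the highest AngII+HS value of the DC clusters, 162 (124 to 208) CPM, against 82.7 (71.4 to 95.3) in the *Cd209a* and 84.7 (56.3 to 122) in the mature cluster. The Control value was 99.8 CPM in the *Xcr1* DCs (log2 ratio 0.70, -0.60 to 2.37, from 5 and 61 UMIs). In the *Cd209a* DCs it was 165 CPM (log2 ratio -0.99, -1.68 to -0.23). Per 1000 class II UMIs, *Ciita* had 4.23 and 4.48 UMIs in the *Xcr1* and 5.72 and 2.11 in the *Cd209a* cluster. The lower pooled value was thus not seen in each DC cluster.

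*H2-DMa*, the H2-M alpha chain, was at 399 (308 to 507) and 404 (381 to 427) CPM in DCs (log2 ratio 0.02, -0.34 to 0.40) and at 146 (108 to 194) and 199 (180.3 to 218) CPM in B cells (log2 ratio 0.44, 0.01 to 0.90). *H2-DMb1*, a beta chain, was at 459 and 457 CPM in DCs (log2 ratio -0.01, -0.34 to 0.35) and at 179 and 124 CPM in B cells (log2 ratio -0.53, -0.94 to -0.10). Both were thus near level in DCs. The other beta chain, *H2-DMb2*, was at 42.3 (17.0 to 87.1) and 118 (106 to 131) CPM in DCs (log2 ratio 1.48, 0.43 to 2.81) and at 212 (166 to 268) and 309 (286 to 334) CPM in B cells (log2 ratio 0.54, 0.19 to 0.92).

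The share of each beta chain varied by cell type. Because 3′ sequencing counts one end of each molecule, shares between genes are shares of captured molecules. *H2-DMb2* took 54.2% of the *H2-DMb1* and *H2-DMb2* UMIs in Control and 71.4% in AngII+HS B cells, 8.43% and 20.6% in DCs, and 1.34% and 1.55% in macrophages. Among AngII+HS DCs it took 67.7% (54.9% to 78.8%) in the mature cluster, 21.0% in the *Cd209a* cluster and 5.08% in the *Xcr1* cluster. B cells gave 82.6% of the *H2-DMb2* UMIs in Control and 57.3% in AngII+HS, and DCs 30.4% in AngII+HS.

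The UMIs of the inhibitors *H2-Oa* and *H2-Ob* came mostly from B cells and DCs. B cells gave 70.8% and 66.2% of the *H2-Ob* UMIs of the Control and AngII+HS libraries, and 68.6% and 41.2% of the *H2-Oa* UMIs, with DCs giving 48.1% of the latter in AngII+HS. *H2-Ob* was at 305 (248.6 to 370.1) and 343 (319 to 369) CPM in B cells (log2 ratio 0.17, -0.13 to 0.48) and at 84.6 (46.2 to 142) and 66.7 (57.8 to 76.6) CPM in DCs (log2 ratio -0.34, -1.12 to 0.55). *H2-Oa* was at 71.7 (46.0 to 107) and 87.9 (75.9 to 101) CPM in B cells (log2 ratio 0.29, -0.32 to 0.97), and in DCs at 24.2 (6.58 to 61.9) and 74.0 (64.6 to 84.3) CPM (log2 ratio 1.61, 0.24 to 3.50). *H2-O* transcripts made up 41.2% and 40.6% of the *H2-O* plus *H2-M* UMIs in B cells, 10.8% and 12.6% in DCs and 2.88% and 1.83% in macrophages.

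**Figure D4:**
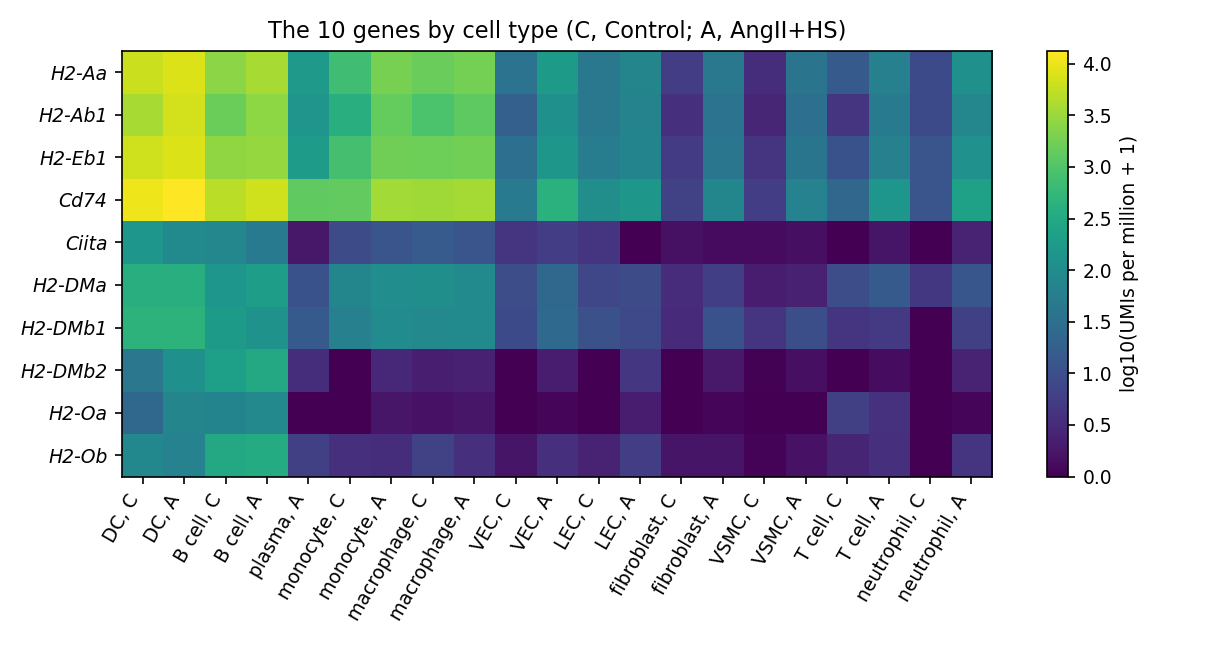
Level of each member (log10 of CPM plus 1, color) by cell type and library. *H2-DMb2*, *H2-Oa* and *H2-Ob* are seen in B cells and DCs, while the chains, *Cd74*, *H2-DMa* and *H2-DMb1* are also seen in macrophages and monocytes.

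Outside the immune cells, the class II level was higher in AngII+HS in every named type, but so was that of T cells (log2 ratio 2.71, 2.17 to 3.29) and neutrophils (log2 ratio 3.90, 3.02 to 4.96). The T-cell level thus moved with the library, and the part of free RNA in the ratios of non-immune cells was not tested beyond the values given beside each. Fibroblasts, which make the adventitial matrix, were at 16.9 (13.6 to 20.7) and 199.7 (194 to 206) CPM (log2 ratio 3.57, 3.27 to 3.88, or 2.96 with the libraries merged without integration), and VSMCs at 12.1 (11.2 to 13.1) and 173 (163 to 183) CPM (log2 ratio 3.83, 3.69 to 3.97). Both were below the T cells of their library in CPM. Per cell, AngII+HS fibroblasts had 1.29 class II UMIs and VSMCs 1.26, against 0.795 in T cells, at median depths of 5264.5, 6967 and 2308 UMIs. These were 1.62-fold and 1.59-fold the T-cell value. In thinned cells, 15.4% of the fibroblasts and 13.8% of the VSMCs had a class II UMI against 25.3% of the T cells. Without thinning the shares were 57.8%, 51.4% and 45.5%. In AngII+HS the fibroblasts and VSMCs were thus above the T cells per cell and below them per UMI, and no class II expression of their own is read from these values. Of the 6 members measured in fibroblasts 5 were at least 2-fold higher in AngII+HS, where 8.95% of the 14889 measured genes were, with the same limit.

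Taken as a whole, VECs were above T cells both per cell and per UMI, which did not hold for each VEC cluster described below. Their class II level was 135 (124 to 146) and 879.6 (856 to 903) CPM (log2 ratio 2.71, 2.58 to 2.83), and per cell they had 0.697 and 4.53 UMIs against 0.223 and 0.795 in T cells. Of the 8 members measured in VECs 7 were at least 2-fold higher in AngII+HS, where 8.23% of the 13153 genes measured were. *Cd74* was at 49.9 (43.4 to 57.0) and 432 (415 to 448) CPM (log2 ratio 3.11, 2.91 to 3.32), *H2-Aa* at 36.7 and 178 CPM (log2 ratio 2.28, 2.04 to 2.53) and *H2-DMb1* at 7.39 and 24.6 CPM (log2 ratio 1.73, 1.18 to 2.33). The T-cell class II level also had a log2 ratio of 2.71, so the count of members carries the limit given for fibroblasts. In T cells the log2 ratio was 2.72 (1.92 to 3.64) for *Cd74* and 2.17 (1.16 to 3.40) for *H2-Aa*. For *H2-DMb1* it was 0.25 (-1.94 to 3.47), from 2 and 11 UMIs. Over all VECs *Ciita* was at 3.23 and 4.52 CPM (log2 ratio 0.49, -0.49 to 1.52), from 14 and 28 UMIs. That value pools the VEC clusters described below. Per 1000 class II UMIs, those led by *Gja5* had 12.9 and 5.77 *Ciita* UMIs, on sums of 465 and 4679. Those led by *Gpihbp1* had 67.2 and 1.31, on sums of 119 and 765. With the class II level 12.1-fold higher in the first, *Ciita* CPM lay higher in AngII+HS there and lower in the second, from few UMIs. In thinned cells *Cd74* was found in 4.28% of Control and 19.4% of AngII+HS VECs and in 2.33% and 11.8% of T cells. Without thinning the shares were 11.7% and 36.1% in VECs and 6.15% and 24.7% in T cells, at median depths of 4267 and 3952 UMIs in VECs and 4382.5 and 2308 in T cells.

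Most of the VEC level came from one of the VEC clusters. VECs led by *Gja5*, *Cytl1* and *Bmx*, genes of arterial endothelium, were at 177 (161 to 193) CPM in 498 Control cells and 2129 (2068 to 2191) CPM in 397 AngII+HS cells (log2 ratio 3.59, 3.45 to 3.73). VECs led by *Gpihbp1* and *Fabp4*, genes of capillary endothelium, were at 70.1 (58.1 to 83.9) and 192 (178 to 206) CPM (log2 ratio 1.45, 1.17 to 1.74) in 340 and 806 cells. The *Gja5* VECs had 11.8 class II UMIs per AngII+HS cell, 14.8-fold the T-cell value, and the *Gpihbp1* VECs 0.949, 1.19-fold the T-cell value. Per UMI the AngII+HS *Gpihbp1* VECs, at 192 CPM, lay below the 319 CPM of T cells. In thinned cells 79.8% of them had no class II UMI, against 74.7% of T cells. No class II expression of their own is read from these values. The macrophage genes *C1qa* and *Lyz2*, which VECs are not known to make, were near the T-cell level in the *Gja5* VECs, with 0.116 against 0.106 and 0.287 against 0.251 UMIs per cell. The part of RNA from DCs, B cells or macrophages in the class II UMIs of these VECs was not tested.

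Class II UMIs were unevenly spread among the *Gja5* VECs. In 381 thinned AngII+HS cells, 48.3% had none, 34.6% had 1 to 4 and 17.1% (13.4% to 21.2%, 65 cells) had 5 to 19, against 0.210% of the Control cells. Just inside this limit of 5 were 14 cells with 5 UMIs, and just outside it 13 cells with 4. Since the limit chose these cells, the class II values in them are a description. Of other genes, *H2-DMa* was at 193 and 28.9 CPM (log2 ratio 2.74, 2.21 to 3.28) in the 65 and the remaining 316 cells, and *H2-DMb1* at 147 and 48.9 CPM (log2 ratio 1.59, 1.08 to 2.08). *Ciita* was at 25.8 and 9.45 CPM (log2 ratio 1.45, 0.16 to 2.66).

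Other genes were also compared between these cells, without a test. *Cd274*, which encodes the checkpoint ligand PD-L1, was at 72.2 and 13.9 CPM (log2 ratio 2.38, 1.55 to 3.22). *Irf8* was at 56.7 and 20 CPM (log2 ratio 1.50, 0.67 to 2.31). Of the class I genes, *Tap1*, the peptide transporter, was at 137 and 52.3 CPM (log2 ratio 1.39, 0.87 to 1.89) and *B2m*, the class I light chain, at 3617 and 2021 CPM (log2 ratio 0.84, 0.75 to 0.93). *Psmb9* (log2 ratio 1.29, 0.92 to 1.66) and *Psmb8* (log2 ratio 1.23, 0.87 to 1.59) were also higher. Every class I gene of the list had an interval above 0. Of the interferon gamma signaling list, *Ifngr1* was higher (log2 ratio 0.58, 0.34 to 0.81). The intervals of *Ifngr2*, *Jak1*, *Jak2* and *Socs1* spanned 0. *Irf1* was at 392 and 397 CPM (log2 ratio -0.02, -0.28 to 0.24), and the cathepsin gene *Ctss* at 23.2 and 20.6 CPM (log2 ratio 0.17, -1.06 to 1.25). The regulator *Creb1* lay the other way, at 30.9 and 108 CPM (log2 ratio -1.80, -2.78 to -0.96), as did the DC marker list, at 38.7 and 84.0 CPM (log2 ratio -1.12, -1.99 to -0.35). That list (*Flt3*, *Zbtb46*, *Cd209a*, *Itgax* and *Ccr7*) had a UMI in 18.5% of the 65 cells and 28.8% of the rest. Its genes were not separated here, and no DC RNA is read from it. The macrophage marker list was at 119 and 74.0 CPM (log2 ratio 0.68, 0.16 to 1.18) and the VEC marker list at 4421 and 4706 CPM (log2 ratio -0.09, -0.17 to -0.02), and the median depths were 4784 and 4871 UMIs. In cells thinned to 1000 UMIs, none of 6 macrophage genes had a UMI in 53 of the 65 cells (81.5%) and in 87.3% of the rest. In the full cells, 43.1% of the 65 and 29.4% of the rest had a UMI of the macrophage marker list. The part of macrophage RNA in these cells was not tested otherwise.

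**Figure D5:**
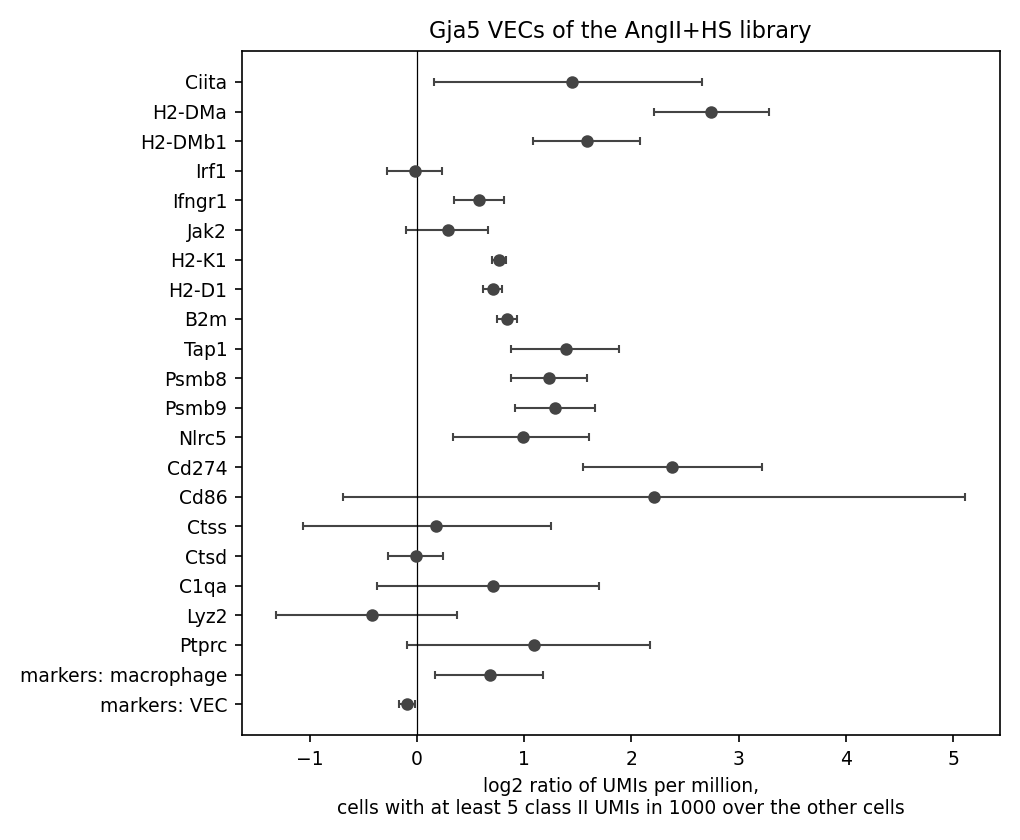
Log2 ratio of genes between the 65 AngII+HS *Gja5* VECs with 5 or more class II UMIs and the other 316, with 95% counting intervals. *H2-DMa* (2.74) and *Cd274* (2.38) lie above 0, and the VEC marker list (-0.09) lies near 0.

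Lymphatic endothelial cells (LECs), in which class II is known at low levels, were at 252 (224 to 281) CPM in Control and 366 (326 to 409) CPM in AngII+HS (log2 ratio 0.54, 0.31 to 0.77). Per cell they had 2.25 UMIs in Control, 10.1-fold the T-cell value, and 1.99 in AngII+HS, 2.51-fold. The Control LECs were thus above the Control VECs, whereas the AngII+HS LECs were below the AngII+HS VECs. Schwann cells, the glia of peripheral nerves, had 0.611 and 0.795 UMIs per cell, the latter at the T-cell value.

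Proteases and a reductase prepare the peptides and trim the invariant chain. The 2-fold calls of this list and the lists below are point values without intervals. Among all genes measured in DCs (8600), 1116 were 2-fold higher and 1069 lower. In macrophages (12552) it was 1679 and 2078, in monocytes (10198) 1175 and 1076, and in B cells (8755) 941 and 376. In VECs (13153) it was 1082 and 788, and in fibroblasts (14889) 1332 and 1404. In macrophages 4 of 7 antigen processing genes measured were 2-fold higher, namely *Ctss*, encoding cathepsin S, at 431 and 1525 CPM, *Ctsl* at 221 and 986 CPM, *Ctsd* at 507 and 2221 CPM and *Ifi30*, encoding the thiol reductase GILT, at 111 and 327 CPM. The macrophages were spread over the clusters in different shares in each library, and the *Arg1*-rich clusters had no Control cells. Over both libraries *Ctsd* was at 2798 CPM in *Arg1*-rich and 827 CPM in resident-like cells, and *Ctsl* at 1573 and 399.6 CPM. In DCs 3 of 7 were higher, *Ctss* (580.0 and 1476 CPM), *Ctsl* (24.2 and 101 CPM) and *Ifi30* (344 and 1353 CPM). *Marchf1*, whose ubiquitin ligase removes class II from the surface, was lower, at 54.4 and 23.1 CPM. Control DCs, monocytes and B cells held 165515, 378919 and 334537 UMIs in all. Their low CPM values, here and in the lists below, thus rest on few UMIs. In monocytes 6 of 7 were higher, from *Ifi30* (338 and 699 CPM) to *Lgmn* (238 and 1379 CPM), and *Marchf1* was lower (55.4 and 15.1 CPM). In B cells 5 of 7 were higher, including *Ctsd* (26.9 and 95.2 CPM) and *Ifi30* (83.7 and 198 CPM), whereas *Ctss* was not among them. Over both libraries B cells lay below T cells for *Ctsd* (86.1 and 157 CPM), *Ctsb* (106 and 139 CPM) and *Ctsl* (65.9 and 68.7 CPM). No difference in B-cell expression is read from these. *Ifi30* (183 and 21.9 CPM) and *Lgmn* (116 and 44.1 CPM) lay above T cells. In VECs *Ctss* was higher, at 2.54 and 21.8 CPM, as the only one of the 6 measured, and in fibroblasts *Ctss* (3.85 and 23.5 CPM), *Lgmn* (53.0 and 161 CPM) and *Ifi30* (27.7 and 70.0 CPM) were. For *Ctss*, T cells over both libraries were at 88.2 CPM, above VECs (13.9 CPM) and fibroblasts (19.3 CPM), so no difference in VEC or fibroblast expression is read from it.

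The regulators in the list either bind class II promoters together with CIITA or, like *Irf4*, *Irf8* and *Spi1*, act on class II or *Ciita* in some cell types. None of 8 measured regulators was 2-fold apart in DCs. *Irf4* was lower in macrophages (31.6 and 11.2 CPM), monocytes (26.4 and 10.9 CPM) and B cells (478 and 201 CPM), the only regulator past that limit there. Over both libraries *Irf4* was at 3.23 CPM in the *Arg1*-rich macrophages, which had no Control cells, and at 25.7 CPM in the resident-like ones. *Spi1*, encoding the myeloid factor PU.1, was higher in VECs (0.923 and 9.69 CPM) and fibroblasts (0.183 and 8.28 CPM), but over both libraries these were at 6.08 and 6.55 CPM, below the 10.5 CPM of T cells, and no difference in their expression is read from this. *Rfx5*, *Rfxap* and *Rfxank*, which encode the complex bound to the X box, passed the limit in none of these types where they were measured.

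Genes of interferon gamma signaling were 2-fold higher for 2 of 6 in DCs, namely *Ifngr1* (127 and 358 CPM) and *Irf1* (42.3 and 99.1 CPM). In macrophages 2 of 6 were, *Ifngr2* (56.6 and 119.8 CPM) and *Jak2* (87.0 and 201 CPM), and in monocytes 1 of 6, *Irf1* (50.1 and 134 CPM). In B cells, VECs and fibroblasts none of 6 was. Over both libraries *Jak2* was at 244 CPM in the *Arg1*-rich macrophages, which had no Control cells, and at 126 CPM in the resident-like ones. *Ifngr2* was at 109 and 76.8 CPM in these.

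Class I genes, the sister pathway, were 2-fold higher for 4 of 9 in DCs, *H2-K1* (1106 and 2308 CPM), *B2m* (834 and 1719 CPM) and the immunoproteasome genes *Psmb8* (151 and 352 CPM) and *Psmb9* (84.6 and 216 CPM). In monocytes 3 of 9 were, *H2-K1* (913 and 2232 CPM), *Psmb9* (36.9 and 85.6 CPM) and *Nlrc5* (26.4 and 54.8 CPM), the class I counterpart of *Ciita*. None of 9 was in macrophages, VECs or fibroblasts, and in B cells *Nlrc5* alone was apart and lower (98.6 and 48.5 CPM). Of the costimulation genes, *Cd274* was higher in DCs (193 and 435 CPM) and macrophages (29.8 and 200.4 CPM), as was *Pdcd1lg2* (18.1 and 74.0 CPM in DCs, and 0 and 6.75 CPM in macrophages). Over both libraries *Cd274* was at 315 CPM in *Arg1*-rich and 66.4 CPM in resident-like macrophages, and *Pdcd1lg2* at 12.0 and 1.35 CPM. *Cd86*, a ligand of CD28, was lower in macrophages (1456 and 528 CPM). Over both libraries it was at 240.2 CPM in the *Arg1*-rich macrophages, which had no Control cells, and at 1163 CPM in the resident-like ones. *Icosl* was lower in DCs (72.5 and 35.7 CPM), monocytes (47.5 and 22.4 CPM) and VECs (26.8 and 6.62 CPM). *Cd40* was lower in B cells (77.7 and 38.0 CPM). *Cd86* and *Cd83* were higher in VECs and fibroblasts, at no more than 9.05 CPM, while T cells over both libraries held 18.6 CPM of *Cd86* and 46.5 CPM of *Cd83*, so these too stayed below the background.

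*H2-Ea*, defective in this strain, had no UMI in Control DCs and 0.661 CPM in AngII+HS DCs. *H2-Eb2*, a second beta chain gene, was at 0 in Control and 73.7 CPM in AngII+HS DCs, at least 2.02 higher on the log2 scale against a floor of 3 UMIs. In macrophages it was at 6.56 and 2.54 CPM.

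Across 55 groups of cells in both libraries and 14612 genes, the genes outside the list whose log-scale level went most closely with the class II sum were *Cd83* (Pearson r 0.902), *Cd86* (0.894), *Ly86* (0.881), *Blnk* (0.875) and *Gm20513* (0.862). Of the members, *Cd74* had 0.997, *H2-DMa* 0.904, *H2-DMb1* 0.877, *Ciita* 0.837, *H2-Ob* 0.675, *H2-DMb2* 0.673 and *H2-Oa* 0.587. The groups share their libraries and free RNA, and the values are descriptions. Within the 2788 AngII+HS macrophages, over 6628 genes, the highest r outside the members were those of the complement genes *C1qa* (0.549), *C1qb* (0.539) and *C1qc* (0.530), and of *Tmem176b* (0.499) and *Tmem176a* (0.494). The lowest were those of *Arg1* (-0.587), *Thbs1* (-0.583), *Cxcl3* (-0.572), *Fn1* (-0.528) and *Ctsd* (-0.503). Within the 369 Control macrophages r ranged from -0.361 for *Lyve1* to 0.285 for *Gm20513*.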

How the data were processed

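Single-cell RNA sequencing was performed on mouse abdominal aorta, with 1 library for Control and 1 for AngII+HS. The authors deposited UMI counts per gene and cell barcode, without normalization. The study's methods name Cell Ranger 7.0 and GRCm39, whereas the matrix header names version 8.0.1 and the labels name mm10, and the reference could shift counts of similar genes. Each matrix was assigned to the sample that holds it in the deposit.

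The cell filter required 500 UMIs, 200 genes and a mitochondrial share under 20%. DoubletFinder could not be run, and Scrublet scores (scanpy 1.11.5) took its place, with the top cells removed at 0.8% per 1000 cells (9.03% of Control and 19.6% of AngII+HS cells). Libraries were integrated with Seurat 5.3.0 (R 4.3.3) on 2000 variable genes and 30 components, leaving out the 10 members, and clustered at resolution 0.8. Phagocytes were clustered again on 20 components. A cluster was named by its best marker list if at least 3 markers were detected in 10% of cells. A cluster whose leading genes pointed elsewhere, or whose depth was low without a marker of its name among its 10 leading genes, stayed unnamed. Naming thresholds were settled after the clusters were seen.

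UMIs were summed per group and library and given as CPM with exact Poisson intervals. Log2 ratios have exact conditional binomial intervals and shares Clopper-Pearson intervals, all at 95% and for counting error only. A ratio against 0 used a floor of 3 UMIs. Genes with at least 20 UMIs in a cell type were called measured, and a 2-fold ratio was the limit for counting a gene as higher or lower. Shares of cells were computed with each cell thinned to 1000 UMIs. In simulated VEC counts with 200 of 13153 genes changed, 100% of the changed genes had the right sign, and 96% of their intervals covered the simulated ratio. These counts were drawn from the Poisson model that the intervals assume, without spread between cells or mice. The simulation therefore checks the calculation only and not whether the intervals hold in the real counts. TMM factors came from edgeR 4.0.16. With 1 library per condition no test was made.

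All 10 members are named, as are genes of the fixed lists past 2-fold and the 5 genes most like the class II sum over groups with at least 20 cells and genes with at least 200 UMIs, or within macrophages among genes found in 5% of cells. Cluster-leading genes and the genes compared within *Gja5* VECs were chosen after their values were seen. The members and lists were chosen with earlier results of these data known. Alternatives were other doublet numbers, no integration, a stricter cell filter, clustering with the members or at resolutions 0.4 and 1.2, TMM, equal weight per cell, thinning, subtraction of T-cell UMIs and the sum without *Cd74*. The sets with or without a cluster were chosen after seeing the data. RefSeq promoters on GRCm38.p6 had entries for 7 of the 10 members. 1 gene of the lists is not reported here, and the counts leave it out. The other assays of the study were not analysed here.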

Additional observations from a re-analysis of the deposited data

Results flagged for a closer look

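Within macrophages and within monocytes, the class II level of single clusters differed in the direction or size of its ratio between AngII+HS and Control, and the difference between clusters was not tested, since each condition has 1 library. Among macrophages the log2 ratio was 1.49 in the cluster led by *Oasl1* and *Kitl* and 1.21 in the cluster led by *Cd209f* and *Lyve1*, against -0.12 in the cluster led by *Mmp12*, which had 21 Control cells. Among monocytes it was -0.61 in the cluster led by *Ly6c2* and *Irf7*, which had 10 Control cells, and 2.46 in the cluster led by *Vcan*, whose Control level came from 97 UMIs in 41 cells.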

How the results depend on the processing

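Of 118 alternative values of the class II log2 ratios over 9 groups of cells, 117 were positive, 63 moved by less than the counting interval, 54 moved by more and 1 reversed. The cause of the changes was not tested. Without integration the macrophage ratio was -0.078, against 0.38 for DCs, 2.96 for fibroblasts, 3.57 for monocytes and 1.39 for resident-like macrophages. With no doublets removed it was 0.34 (DCs), 0.66 (macrophages), 0.28 (B cells), 3.12 (VECs) and 2.07 (monocytes). With double the doublets removed it was 0.39 (macrophages), 3.20 (fibroblasts), 0.76 (monocytes) and 1.54 (resident-like). The stricter cell filter gave 0.58 (DCs), 0.16 (macrophages), 3.24 (fibroblasts), 1.73 (monocytes) and 1.49 (resident-like). Resolution 0.4 gave 0.25 (macrophages), 2.98 (fibroblasts), 1.72 (monocytes) and 1.50 (resident-like), and resolution 1.2 gave 0.058 (macrophages), 2.09 (monocytes) and 1.49 (resident-like). With the class II genes used in clustering it was 0.76 (DCs) and 0.16 (macrophages). Control DCs then numbered 121, and 41 with the stricter cell filter, against 26 in the main processing. The AngII+HS DCs numbered 626, 577 and 584 in these. TMM gave 1.04 (DCs), 0.42 (macrophages), 0.65 (B cells), 1.94 (monocytes) and 1.60 (resident-like). Equal weight per cell gave 0.50 (DCs), 0.24 (macrophages), 3.91 (fibroblasts), 1.10 (monocytes) and 1.40 (resident-like), and thinning gave 0.57 (DCs), 0.39 (B cells), 3.91 (fibroblasts), 1.06 (monocytes) and 1.38 (resident-like). Subtracting T-cell UMIs gave 2.98 (VECs) and 3.89 (*Gja5* VECs), and no value for fibroblasts and VSMCs. Without *Cd74* it was 0.27 (macrophages), 2.40 (VECs), 1.57 (resident-like) and 3.27 (*Gja5* VECs). Sets chosen after the data were seen gave 0.14 for macrophages with the *Cd5l* cluster, 1.04 without the *Arg1* clusters, and 2.98 for fibroblasts with the unnamed *Dio2* cluster.

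Without a filter on low counts, 6.55% of genes were 2-fold higher in DCs, 8.53% in macrophages (23.3% lower), 6.37% in monocytes, 6.61% in B cells, 9.47% in VECs and 7.05% in fibroblasts. In cells that were not thinned, *Cd74*, *H2-Aa* and *Ciita* had a UMI in 11.7%, 12.5% and 1.31% of Control VECs and in 36.1%, 28.3% and 1.58% of AngII+HS VECs, and *Cd74* and *H2-Aa* in 24.7% and 12.4% of AngII+HS T cells. No paired analysis was possible because each condition has 1 library. The members with the fewest Control UMIs were *H2-Oa* (35), *H2-DMb2* (86), *Ciita* (133) and *H2-Ob* (144), and Control DCs, monocytes and B cells numbered 26, 51 and 99.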

Other observations

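A phagocyte cluster led by *Cd5l* and *Gpnmb* stayed unnamed, because its Control cells were shallow and no marker of its best name led it. Its class II level was 12564 CPM in 71 Control cells and 4358 CPM in 62 AngII+HS cells, a log2 ratio of -1.53, with median depths of 832 and 9757.5 UMIs. Cycling cells, 9 in Control and 152 in AngII+HS, were at 5902 and 7137 CPM and gave 3.53% of the class II UMIs of the AngII+HS library. Neutrophils were at 36.8 CPM in 99 Control and 548 CPM in 4659 AngII+HS cells.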
